A study of Mus musculus with 10 samples.

Results

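The 10 genes described here mark pain- and itch-sensing neurons and were followed in whole ear skin: the sodium channels Scn9a, Scn10a and Scn11a, the cation channels Trpv1, Trpa1 and P2rx3, and the peptide genes Calca, Calcb, Tac1 and Nppb. They were taken by gene symbol, and all 10 were found among the 41388 genes of the deposited tables. The skin came from 10 C57Bl/6 mice, 4 labelled Littermate (genotype WT) and 6 labelled Experimental, with 1 library per mouse. Both groups received MC903 (calipotriol, a vitamin D analogue that inflames the skin), and the stated regimen is a topical dose of 1 nM every day over 12 days. The sources disagree on the Experimental genotype: the series text gives NaV1.8+ Il4raF/F (a floxed receptor chain for IL-4 and IL-13) and the sample labels give NaV1.8+ Jak1F/F (a floxed kinase downstream of it). Neither says how NaV1.8 drives a deletion, and the sources used here give no age, litter or batch, so the groups are called by their labels only. There was no group without MC903, so no value below is an effect of the treatment.

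Sensory neurons have their cell bodies in the dorsal root and cranial ganglia and send long axons into the skin, where the channels detect heat, irritants or ATP and set the firing threshold. Peptides such as CGRP and substance P are made in the cell body, carried along the axon and released from its endings, where they act on vessels and mast cells. The proteins can therefore be plentiful in skin whose RNA for them is scarce. In a bulk sample, fewer cells of a type and less RNA per cell cannot be told apart.

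Little RNA of these genes was present in any library. The 10 genes together had 1556 counts over all 10 libraries, 425 in Littermates and 1131 in Experimental mice. The summed counts were 78, 122, 112 and 113 in Littermates 1 to 4, and had a lowest value of 79, a median of 152.5 and a highest value of 324 in Experimental mice. The highest sums were in Experimental 2 and 3, at 324 and 294, and these were also the deepest libraries. Total counts were 12865459 to 14324433 in Littermates and 11520348 to 41935183 in Experimental mice. Scaled to the total count of each library (CPM, counts per 1e6), Littermates had sums of 7.88 ± 1.30 CPM (SD, n = 4), against 8.55 ± 2.01 CPM for Experimental mice (SD, n = 6). Their ranges overlapped, at 6.06 to 8.95 CPM and 6.86 to 12.3 CPM, and the difference of the means was smaller than either SD.

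Detection followed the same pattern. Of the 10 genes, 6, 8, 6 and 7 had at least 1 count in Littermates 1 to 4, and 7 to 9 did in the Experimental libraries. The highest number, 9, was reached in the 2 deepest libraries. At a threshold of 3 counts the numbers were 5 to 6 in Littermates and 6 to 7 in Experimental mice. If every library had the depth of the shallowest one, the number expected with at least 1 count would be 5.99 to 7.69 in Littermates and 6.81 to 7.75 in Experimental mice, which overlap. For at least 3 counts it would be 4.93 to 5.99 in Littermates (mean 5.49) and 4.70 to 6 in Experimental mice (mean 5.24). These also overlap. In a single library, 3 counts were worth 0.0715 to 0.260 CPM, and these values are the limits that a count of 0 allows, for counting error only.

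**Figure D1:**
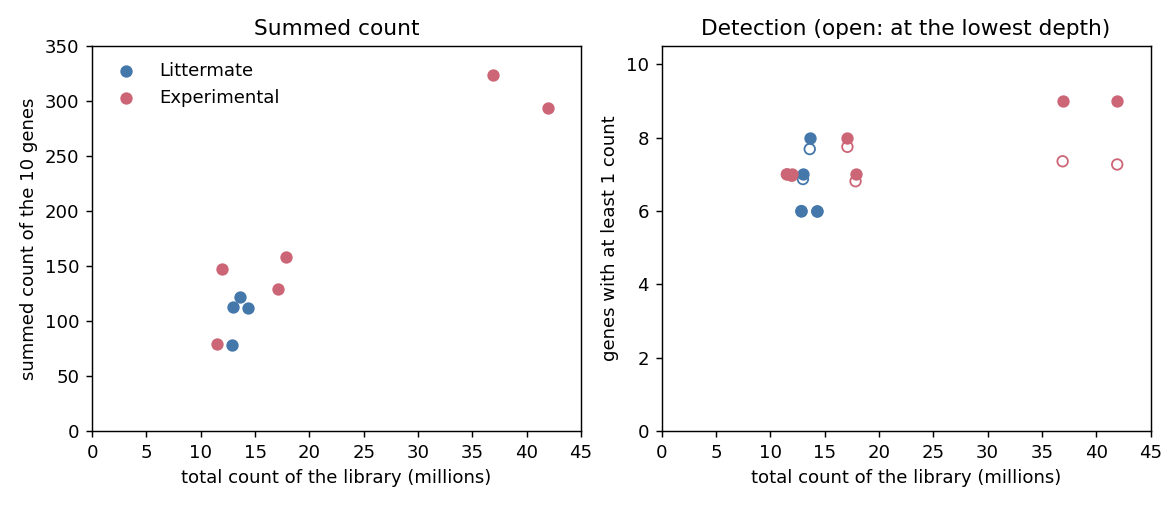
Left, the summed count of the 10 genes (vertical axis, counts) against the total count of each library (horizontal axis, counts in units of 1e6); right, the number of the 10 genes with at least 1 count, with open circles for the number expected at the depth of the shallowest library. Blue points are the 4 Littermates and red points the 6 Experimental libraries; the sums of 324 and 294 and the detection of 9 genes belong to the 2 deepest libraries.

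Few genes carried most of the sum. Calcb alone made up 34.2% to 59.0% of it per library, and Calcb, Trpv1 and P2rx3 together 74.7% to 90.2%. At the other end, Scn9a, Scn10a and Trpa1 had 7, 2 and 1 counts over all 10 libraries. Because reads are counted over genes of unequal length, levels of different genes are compared here per kilobase (RPKM). In this unit the order was Calcb at 3.19 ± 1.21 RPKM, Nppb at 0.501 ± 0.245, Trpv1 at 0.470 ± 0.092 and P2rx3 at 0.443 ± 0.119 (SD, n = 10 libraries). Calca followed at 0.168 ± 0.081 RPKM, Scn11a at 0.0868 ± 0.031 and Tac1 at 0.0286 ± 0.018. Scn9a, Scn10a and Trpa1 had means of 0.0022, 0.0016 and 0.00056 RPKM. Only the step from Calcb to Nppb left the ranges of neighbours apart, with Calcb above Nppb in 10 of 10 libraries; all other neighbours in this order overlapped. Nppb is the shortest of the genes, and its rank rests on 4 to 8 counts per library.

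**Figure D2:**
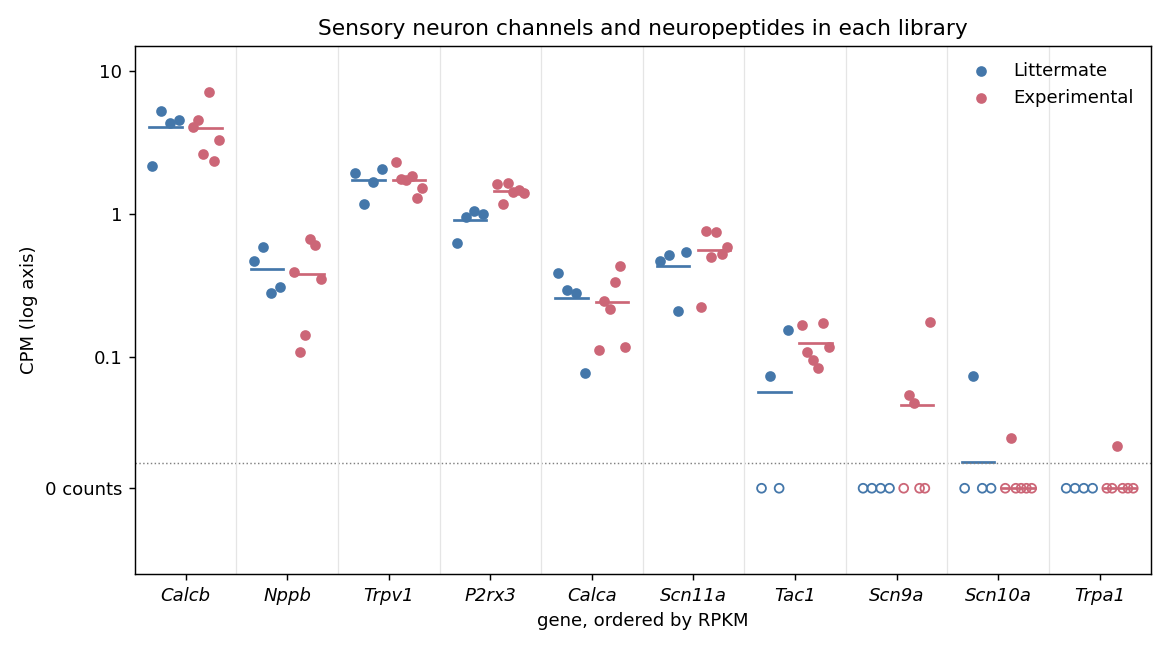
CPM (log axis) of each of the 10 genes in each library, blue for Littermates (n = 4) and red for Experimental mice (n = 6), with genes in the order of their RPKM. Horizontal lines are group means, open circles below the dotted line are libraries with 0 counts, and only P2rx3 has every Experimental library above every Littermate.

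Of the 3 sodium channels, Scn11a was the one found in every library. Scn9a encodes NaV1.7, which amplifies small depolarizations of sensory and sympathetic neurons. It (ENSMUSG00000075316, mm10 chromosome 2, 66480080 to 66634962, minus strand) had 0 counts in all 4 Littermates and 0, 2, 2, 0, 0 and 3 counts in Experimental 1 to 6. Since 3 counts in 1 Littermate library are worth 0.209 to 0.233 CPM, a difference of this size was not detectable at this depth. Scn10a encodes NaV1.8, the channel that carries most of the current of the action potential in nociceptors and the one named in the genotype. It (ENSMUSG00000034533, chromosome 9, 119608456 to 119719032, minus strand) had 1 count in Littermate 2, 1 count in Experimental 2 and 0 counts in the other 8 libraries. Skin RNA therefore gives no check of the gene named in the genotype. Scn11a encodes NaV1.9, a persistent current near the resting potential, and lies 34.73 kb from Scn10a (ENSMUSG00000034115, chromosome 9, 119753763 to 119825456, minus strand). Its counts were 6, 7, 3 and 7 in Littermates, and 4, 28, 21, 9, 6 and 10 in Experimental 1 to 6. In CPM it was 0.432 ± 0.151 (SD, n = 4) and 0.557 ± 0.197 (SD, n = 6), with overlapping ranges.

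Some of these counts could belong to relatives. Of the 50-base windows in annotated Scn9a transcripts, 4.16% also occur in transcripts of another gene (Scn1a, Scn2a, Scn3a or the antisense gene Gm13629). For Scn10a, 1.66% of the windows also occur in transcripts of another sodium channel gene. In the GENCODE M21 transcripts used for this, Scn11a, Trpv1, Trpa1, P2rx3, Tac1 and Nppb had no such window. Scn3a, at 0.930 RPKM, was far above Scn9a in these libraries. The sources used here do not state how reads with several matches were counted, so the few counts of Scn9a and Scn10a are uncertain. Gm13629 shares 180 exonic bases with Scn9a on the other strand and had 0 counts.

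Among the detectors of heat and irritants, Trpv1 was measured in every library and Trpa1 was at the edge of detection. Trpv1 encodes the channel opened by heat and capsaicin (ENSMUSG00000005952, chromosome 11, 73234292 to 73261242, plus strand). It had 25, 16, 24 and 27 counts in Littermates and a lowest value of 15, a median of 33.5 and a highest value of 72 counts in Experimental mice. As normalized CPM, in which each library's total is adjusted by its TMM factor (a scaling that sets most genes equal between libraries), it was 1.96, 1.17, 1.71 and 2.10 in Littermates and 1.31 to 2.30 in Experimental mice. The groups overlapped, with 1 of 6 Experimental libraries above all Littermates. The log2 fold change was 0.013 with an SE of 0.21 and a 95% interval from -0.43 to 0.46 (edgeR, adjusted p = 0.990). Trpa1 encodes the channel opened by mustard oil and other reactive irritants (ENSMUSG00000032769, chromosome 1, 14872648 to 14918862, minus strand). It had 1 count, in Experimental 3, and 0 in the other 9 libraries.

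P2rx3 was the only member whose groups did not overlap, and it did not pass the test. It encodes the ATP-gated channel of nociceptors (ENSMUSG00000027071, chromosome 2, 84998583 to 85037462, minus strand). The counts were 8, 13, 15 and 13 in Littermates and 29, 43, 69, 17, 17 and 24 in Experimental 1 to 6. In normalized CPM the Littermates stood at 0.626, 0.953, 1.07 and 1.01, and the Experimental libraries at 1.625, 1.16, 1.65, 1.39, 1.49 and 1.396. All 6 Experimental values thus lay above the highest Littermate, and the lowest of all was Littermate 1. The means were 0.914 ± 0.198 CPM (SD, n = 4) and 1.45 ± 0.179 CPM (SD, n = 6). The log2 fold change was 0.65 with an SE of 0.22 and a 95% interval from 0.19 to 1.12 (edgeR, unadjusted p = 0.00929, adjusted p = 0.259). Over all 16830 genes tested, 0.761% had every Experimental library above all Littermates in this way, and 3.65% had an unadjusted p under 0.05 with a higher level in Experimental mice. In the same test 0.0178% of all genes were called in either direction at an adjusted p under 0.05, and 0 of the 3 members that entered it were. By unadjusted p, 1 of the 3 members was under 0.05, and DESeq2 called 0 of 3, where it called 1.35% of all genes.

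The P2rx3 counts touch a much more abundant neighbour. In the deposited exon coordinates, the gene shares 51 exonic bases with Ssrp1, a histone chaperone gene on the opposite strand. No 50-base window common to them was found in the GENCODE M21 transcripts, and the annotations can differ. Ssrp1 had 33327 counts over the 10 libraries, against 248 for P2rx3. The sources used here give no strand setting, so reads from the shared bases cannot be assigned to one of them. Ssrp1 stood at 171 ± 15.3 normalized CPM (SD, n = 4) and 176 ± 12.2 (SD, n = 6), and its log2 fold change was 0.041 (SE 0.077, edgeR, adjusted p = 0.878). Relative to Ssrp1, P2rx3 counts came to 0.540% ± 0.142 for Littermates (SD, n = 4) and to 0.827% ± 0.127 for Experimental mice (SD, n = 6). In this ratio the groups overlapped, at 0.352% to 0.677% in Littermates and 0.623% to 1.01% in Experimental mice. The share of P2rx3 reads that come from the common bases was not tested.

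Calca and Calcb encode the alpha and beta forms of CGRP, the peptide that widens vessels and is the most common one of peptide-containing sensory neurons; Calca also encodes calcitonin by alternative splicing. The genes are 82.28 kb apart on chromosome 7 and their CGRP-coding exons are near copies, which matters here because reads were 50 bases long. The stretch of exon 4 of 5 with the longest coding run common to both is shown, with the 59 bases identical in Calca and Calcb in capitals (GRCm38, which is mm10; GENCODE M21 transcripts). Calca lies at chr7:114632526-114632599 on the minus strand and Calcb at chr7:114721975-114722048 on the plus strand.
Calca: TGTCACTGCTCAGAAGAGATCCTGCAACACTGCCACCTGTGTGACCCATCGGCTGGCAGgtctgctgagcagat
Calcb: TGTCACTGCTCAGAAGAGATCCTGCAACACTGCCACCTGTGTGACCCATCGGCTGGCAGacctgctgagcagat
A read that falls within the capitals fits both genes. The stretch in capitals holds 10 such windows, and the whole genes share 12: 0.715% of the 50-base windows of Calca and 0.952% of those of Calcb.

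Calcb was the most abundant member per length and Calca stood far below it. Calcb (ENSMUSG00000030666, chromosome 7, 114718643 to 114723365) had 28, 72, 62 and 59 counts in Littermates and a lowest value of 27, a median of 79 and a highest value of 168 counts in Experimental mice. Calca (ENSMUSG00000030669, chromosome 7, 114631480 to 114636357) had 5, 4, 4 and 1 counts in Littermates and 2, 9, 9, 4, 5 and 2 in Experimental 1 to 6. The ratio of Calcb to Calca in RPKM had a median of 21.5 and ran from 6.32 to 69.1, so that Calcb was above Calca in every library. Calca counts can include calcitonin transcripts, since the deposited counts are per gene. Calcb stood at 2.19, 5.28, 4.41 and 4.60 normalized CPM in Littermates and at 2.36 to 7.02 in Experimental mice. The groups overlapped, and 1 of 6 Experimental libraries, Experimental 4, lay above all Littermates. The log2 fold change of Calcb was -0.075 with an SE of 0.30 and a 95% interval from -0.73 to 0.58 (edgeR, adjusted p = 0.951). In CPM, Calca was 0.260 ± 0.131 (SD, n = 4) and 0.243 ± 0.125 (SD, n = 6), and it did not pass the filter on low counts.

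Tac1 and Nppb, the other peptide genes, were too low to enter the test. Tac1 encodes substance P and neurokinin A (ENSMUSG00000061762, chromosome 6, 7554879 to 7565834, plus strand). It had 0, 1, 0 and 2 counts in Littermates and 3, 4, 4, 1, 2 and 2 counts in Experimental 1 to 6. It was thus found in 2 of 4 Littermates and 6 of 6 Experimental libraries, at no more than 4 counts in any. Pooled over libraries it was at 0.0557 CPM in Littermates, with an exact 95% Poisson interval from 0.0115 to 0.163, and at 0.117 CPM in Experimental mice, with an interval from 0.0666 to 0.189, so the intervals overlapped. These intervals cover counting error only. Nppb encodes the natriuretic peptide BNP, which itch-sensing neurons use as a transmitter in the spinal cord and heart muscle secretes as a hormone (ENSMUSG00000029019, chromosome 4, 147985788 to 147987205, plus strand). It had 6, 8, 4 and 4 counts in Littermates and 7, 4, 6, 8, 7 and 6 in Experimental 1 to 6. The counts stayed within 4 to 8 although the totals of the libraries differed widely, so that the deepest libraries, Experimental 2 and 3, had the lowest levels at 0.108 and 0.143 CPM. The other 8 libraries lay between 0.279 and 0.667 CPM, in both groups.

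Of the 10 members, 3 (Trpv1, P2rx3 and Calcb) passed the filter on low counts. With the filter removed, which was an alternative, all 10 entered the fit and 0 were called, against 0.264% of the 29512 genes in that fit. Scn11a was then at a log2 fold change of 0.38 (SE 0.39, edgeR, adjusted p = 0.791), Calca at -0.19 (SE 0.53, adjusted p = 0.929) and Nppb at -0.41 (SE 0.50, adjusted p = 0.791). Tac1 was at 1.00 (SE 0.86, edgeR, adjusted p = 0.747). For Scn9a, Scn10a and Trpa1 no fold change is given, because at least 1 group rested on 0 or 1 counts in all.

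**Figure D3:**
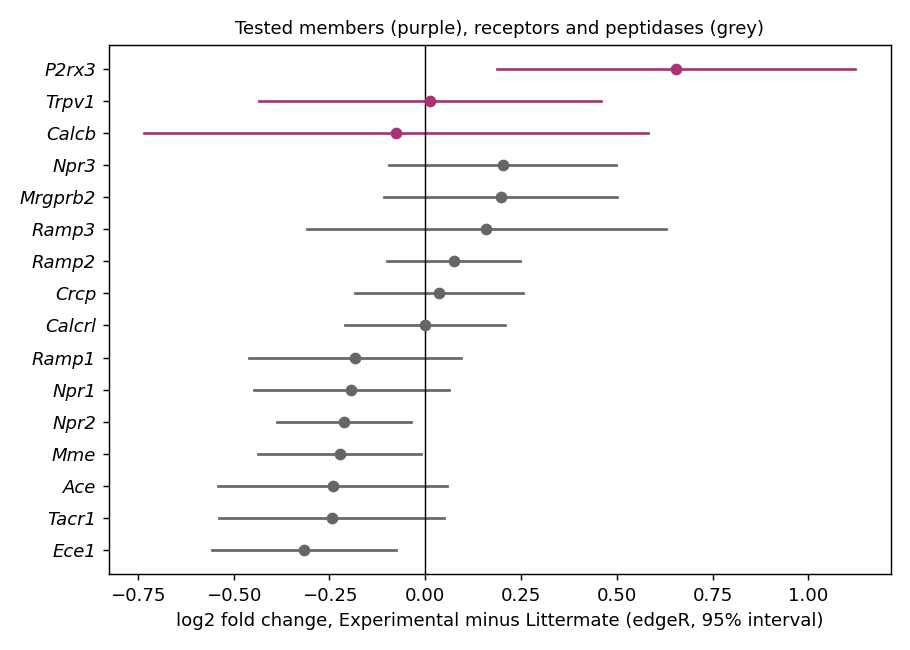
Log2 fold change, Experimental minus Littermate, of the 3 tested members (purple) and of the 13 tested neuropeptide receptors and peptidases (grey); lines are 95% intervals from edgeR over 4 Littermate and 6 Experimental libraries. P2rx3 is the highest, at 0.65 with an interval from 0.19 to 1.12, and Trpv1 and Calcb lie near 0; none of the genes shown was called.

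The receptors of these peptides and the enzymes that degrade them are made by cells of the skin itself, and most of them stood above Calca, Tac1 and Nppb. The exceptions were Calcr, Tacr2 and Tacr3, with 16, 26 and 107 counts over all libraries, which were not tested. The CGRP receptor is built from Calcrl, at 6.60 RPKM, and its partner Ramp1, at 5.09 RPKM. Tacr1, the substance P receptor, was at 1.97 RPKM, and Mrgprb2, a mast cell receptor that substance P also activates, at 2.36 RPKM. The natriuretic peptide receptors Npr1, Npr2 and Npr3 were at 4.09, 10.6 and 3.16 RPKM. Of the 16 genes of this list 13 were tested, of which 6 had a log2 fold change above 0 and 7 below 0, and 0 were called. Their median was -0.18, against -0.0013 over all genes tested. An unadjusted p under 0.05 was found for 3 of them, all lower in Experimental mice, where 8.1% of all genes had one. These were Ece1, which processes endothelin and cleaves neuropeptides, at -0.32, Npr2 at -0.21 and Mme (neprilysin) at -0.22 (edgeR, adjusted p = 0.294, 0.327 and 0.396). For Npr2 and Mme, 5 of 6 Experimental libraries lay below all Littermates, and for Ece1 0 of 6 did. Tacr1 stood at -0.24 and Calcrl at 0.00057 (edgeR, adjusted p = 0.521 and 0.999).

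Several relatives of the channels, made by other cells of the ear, were likewise higher than the members. Among sodium channels Scn7a, a sodium sensor found in Schwann cells, was at 7.59 RPKM and Scn4a, the channel of skeletal muscle, at 3.88 RPKM. Of 12 such subunits 11 were tested, with 6 above and 5 below 0 and a median of 0.015, and 0 were called. Scn4a stood at -0.42 (edgeR, adjusted p = 0.425). Trpv3, the warmth channel of keratinocytes, was at 14.1 RPKM, Trpv4 at 8.03 and Trpv2 at 5.68, against 0.470 for Trpv1. Among ATP-gated channels P2rx4 was at 17.4 RPKM, P2rx7 at 8.23 and P2rx2, which pairs with P2rx3 in one channel, at 1.33. Of 21 other TRP and P2X genes 18 were tested, with 7 above and 11 below 0, a median of -0.057 and 0 called. Trpv3 stood at 0.20, P2rx7 at -0.27 and P2rx6 at -0.29 (edgeR, adjusted p = 0.390, 0.313 and 0.492). Other peptides of these families included Penk, the enkephalin precursor, at 23.6 RPKM and Tac4, a tachykinin made outside neurons, at 4.80 RPKM. Several others of this list were low. Pdyn had 1 count over all libraries, Tac2 5, Vip 5, Pomc 17, Iapp 29, Nppa 33 and Npy 91. Of 12 such peptides 5 were tested, with a median of -0.050 and 0 called. Penk stood at -0.35, Adm2 at 0.33 and Tac4 at -0.072 (edgeR, adjusted p = 0.453, 0.673 and 0.921).

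**Figure D4:**
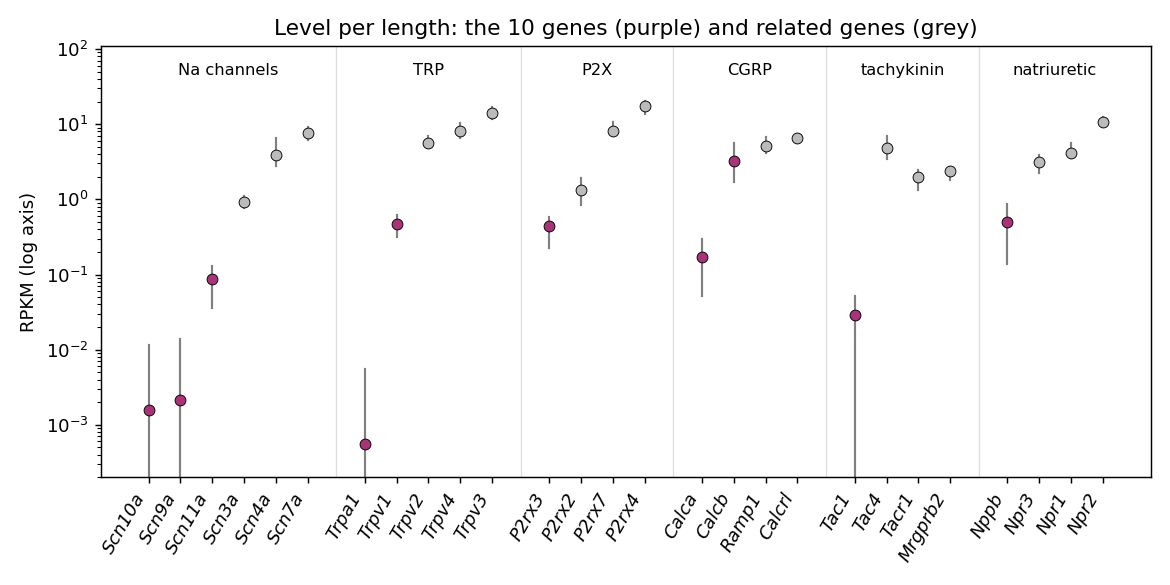
Mean RPKM (log axis) over all 10 libraries of the 10 members (purple) and of related channels, peptides and receptors (grey); vertical lines run from the lowest to the highest library, and lines that reach the bottom edge include libraries at 0. Among the genes shown, the members lie at the low end of each family, except that Calcb, at 3.19 RPKM, is close to the receptor genes Ramp1 and Calcrl.

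Other genes of sensory neurons were as uneven as the members. Of 23 further ones, Mrgprb4, Sst, Htr3a and Adcyap1 had 0 counts in all libraries. Mrgpra3, a receptor of itch neurons, had 2 counts, Mrgprd, a receptor of another class of nociceptor, 21, and the cold channel Trpm8 27. Mrgprx1 went the other way, with 226 counts over all libraries and 10 to 57 in each. It was at 0.972 RPKM, above the means of Trpv1 (0.470) and P2rx3 (0.443). The higher ones, such as Cacna2d1 at 5.40 RPKM and Ptgir at 5.19, are also made by cells that are not neurons. Of the 12 tested, 3 were above and 9 below 0, with a median of -0.12 and 0 called. Piezo2, the touch channel, stood at -0.23 and Gfra2 at -0.32 (edgeR, adjusted p = 0.440 and 0.470). Of 8 transcription factors that set the identity of sensory neurons, 4 had at most 10 counts over the 10 libraries. Tlx3 had 0 counts, Prdm12 1 and Drgx 19 in all. Pou4f1 had 183 and Isl1, also a factor of Merkel cells, 337. Of the 8 factors 3 were tested, all with values below 0, and 0 were called; Runx1, which blood cells and hair follicles also make, stood at -0.21, Isl1 at -0.070 and Pou4f1 at -0.039 (edgeR, adjusted p = 0.388, 0.955 and 0.998).

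General neuronal genes were uneven as well. The neurofilament gene Nefl had 2 counts over the 10 libraries, Snap25 11, Elavl4 4 and Prph 69. Gap43 had 290, Uchl1 345, Syn1 409, Snhg11 761 and Stmn2 1017, the last at 2.87 RPKM. Thy1 and Tubb3, the highest of these 18 genes at 73.6 and 50.6 RPKM, are also made by cells that are not neurons. Of the 7 tested, 2 were above and 5 below 0, with a median of -0.13 and 0 called. Tubb3 stood at 0.21, Thy1 at -0.13 and Gap43, a growth cone gene, at -0.22 (edgeR, adjusted p = 0.602, 0.654 and 0.804).

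Markers of the cells that could accompany the axons were measured beside the members. Schwann cell markers, 14 of 14 tested, summed to 689 to 828 CPM in Littermates and 618 to 752 CPM in Experimental mice, with 3 values above and 11 below 0, a median of -0.097 and 0 called. Merkel cell markers summed to 21.3 to 23.9 CPM and 18.0 to 23.1 CPM, with 2 above and 4 below 0 of 6 tested. The defining factor Atoh1 had 3 counts in all, while Krt20 had 252, Krt8 138 and Chga 887. Sympathetic markers summed to 23.0 to 27.8 CPM and 24.4 to 29.4 CPM, with 4 above and 1 below 0 of 5 tested and a median of 0.17. Dbh, which encodes the enzyme that makes noradrenaline, had 3 counts, while Slc6a2, also of this list, had 96 to 422 counts per library. Skin markers, which check the labelled tissue, summed to 33422 to 38543 CPM in Littermates and 30490 to 37317 CPM in Experimental mice. Mast cell markers had 1 value above and 9 below 0 (10 tested, median -0.20), skeletal muscle markers 2 above and 8 below (10 tested, median -0.31) and melanocyte markers 1 above and 7 below (8 tested, median -0.34). None of these was called, and 2, 3 and 2 of them had an unadjusted p under 0.05 (edgeR), all lower in Experimental mice. Over all genes tested, 8.1% had such a p with a lower level in Experimental mice. Skin markers had 3 of 10 tested and Schwann cell markers 1 of 14, also lower. Merkel cell and sympathetic markers had 0. Gata2, a mast cell factor, stood at -0.70 and Tnnc2, a muscle troponin gene, at -1.48 (edgeR, adjusted p = 0.0987 and 0.107). The ranges of the 2 groups overlapped for each of these summed levels, and the part of any of these cells in the values of P2rx3 was not tested.

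For Trpv1 and Calcb, which had at least 10 counts in every library, the genes of most similar pattern were sought among 14291 genes by Pearson's r over the 10 libraries; the points differ in depth, and each gene pair shares its libraries. For Trpv1 these were Pla2g2d (r = 0.925), Mob3a (0.893) and C7 (0.891). For Calcb they were Nop9 (r = 0.903), Clcn2 (0.871) and Nsmf (0.868). With so many genes searched over 10 libraries, these values describe the best matches and carry no test.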

How the data were processed

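RNA of whole ear skin was measured in 4 Littermate and 6 Experimental mice. Per the labels' protocols, ribosomal RNA was removed by hybridization, cDNA was primed with random hexamers and sequenced as single 50-base reads. The genome was mm10 and the tools were featureCounts 1.4.5, Subread and STAR 2.0.4b, per the submitters' processing notes. The sources used here give no strand setting, annotation release or rule for reads with several matches.

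Per the file headers, each deposited table gives a read count, a CPM and an RPKM per gene. The authors' counts are raw. The deposited CPM values are scaled to the library total, and the deposited RPKM values are that CPM per kilobase of gene length. Gene symbols were matched to 97.3% of the 41388 Ensembl identifiers. Total counts ran from 11520348 to 41935183, so that 3 counts were worth 0.0715 to 0.260 CPM, and pairs of libraries differed beyond sampling noise.

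The counts of all 10 libraries were fitted with edgeR 4.0.16 in R 4.3.3 (TMM, filterByExpr by group, robust quasi-likelihood test, two-sided, group as the only term), with Benjamini-Hochberg adjustment over the 16830 genes kept and a threshold of 0.05. The standard error is the log2 fold change divided by the square root of F. The step was tested on simulated data. Expected detection at the lowest depth is the exact hypergeometric value. Gene windows and exons came from GENCODE M21.

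The 10 members and the 15 lists were chosen with earlier results of these data known. All members are named. All tested neuropeptide receptors and peptidases may be named, and from each other list the 3 tested genes of lowest p. For members with 10 counts in every library, the 3 genes of highest Pearson r are named (log2 normalized CPM, prior count 2, mean of at least 1 CPM, no predicted model). Genes beyond these were named after their values were seen: those low or absent in their list and those that set a level. A few genes that this rule takes are not reported here. Alternatives were other size factors, other filters, DESeq2 1.42.0, limma 3.58.1 voom with and without quality weights, the replicate number as a block, and libraries left out.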

Additional observations from a re-analysis of the deposited data

Results flagged for a closer look

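A library was singled out where its gap to the nearest other library of its group was a large part of the group's range (Dixon's 95% critical value). This held in 11 of 132 groups checked. The critical value allows about 5% by chance for continuous values, which counts near 0 are not. A lone count with 0 in the rest of its group passes by construction. The number flagged is therefore not set against that 5%. Among the members, Scn9a was 0.1755 CPM in Experimental 6 (3 counts), against at most 0.0542 in the other Experimental libraries. Scn10a was 0.0734 CPM in Littermate 2 and 0.0271 CPM in Experimental 2, and Trpa1 0.0238 CPM in Experimental 3, each of them 1 count with 0 in the rest of its group. The summed CPM of the 10 members was 12.3 in Experimental 4, against 6.86 to 8.85 in the other Experimental libraries.

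Experimental 4 was also the highest of its group for Npr2, at 57.2 CPM against 42.7 to 47.3, and for Clcn2, at 13.7 CPM against 8.33 to 10.1. Experimental 3 was highest for Krt20, at 2.17 CPM against 0.877 to 1.29. Experimental 1 was highest for P2rx7, at 48.9 CPM against 37.9 to 41.6, and for Slc45a2, at 1.345 CPM against 0.667 to 0.840. Gfra3 was 4.61 CPM in Littermate 4, against 2.72 to 2.86 in the other Littermates.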

How the results depend on the processing

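The count of members called was 0 in the fit described and in all 21 alternatives. P2rx3 kept its direction in all 21, with a log2 fold change from 0.52 to 0.74 and an adjusted p from 0.180 to 0.649. Trpv1 changed sign in 3, to -0.14 without Littermate 2, -0.068 without Experimental 1 and -0.095 without Littermate 2 and Experimental 6; with 1 library left out it ran from -0.14 to 0.13. Calcb changed sign in 7: 0.0079 with voom quality weights, 0.081 with the replicate block, 0.066 without Littermate 2, 0.050 without Experimental 3, 0.015 without Experimental 5, 0.014 without the 2 deepest libraries and 0.12 without Littermate 2 and Experimental 6; with 1 library left out it ran from -0.27 to 0.066. The log2 ratio of the summed level ran from -0.013 to 0.26 over its 14 alternatives.

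Over all genes, 3 were called, against 78 with no filter, 227 by DESeq2, 57 by voom with quality weights and 67 with the replicate block. Leaving out 1 library gave 3 to 343 calls, with 343 without Littermate 2, 28 without Experimental 6 and 8 without Littermate 3, and 563 were called without both Littermate 2 and Experimental 6; the cause was not tested. Libraries that share a number had deviations correlated at 0.033, -0.020, 0.091 and -0.021, within the -0.135 to 0.139 of pairs with different numbers. These values give no sign that the numbers pair the samples, but they cannot exclude it. Depth limits Scn9a, Scn10a, Scn11a, Trpa1, Calca, Tac1 and Nppb, none of which passed the filter.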
